A study of Rattus norvegicus with 31 samples.

Results

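Kidney cortex of rats given a high-salt diet together with calcitriol (CAL) was set against kidney cortex of control rats (NC), to describe which transcripts lay away from the control level. The 11 libraries were taken by tissue and treatment label, 6 CAL and 5 NC, out of 31 in the series. Cortex of rats on high salt alone (HS, 4 libraries) shared the fit and is given beside the results, and 11 colon libraries of the NC and CAL groups served one test of the difference between tissues. The labels give the treatments as NC, HS and CAL, and the reading of these as control, high salt, and high salt with calcitriol follows the study's title. Strain, age, sex, salt content, calcitriol dose and duration are not given in the sources used here. No group given calcitriol without salt was analysed here, and the CAL minus NC difference holds the effect of both agents together. Nothing in the labels says whether each library came from a different animal, and the p-values measure only the spread between these libraries.

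Calcitriol is the hormonally active form of vitamin D. It binds the vitamin D receptor (Vdr), which pairs with a retinoid X receptor and acts on target genes, among them Cyp24a1, the 24-hydroxylase that breaks calcitriol down and is made mainly in the kidney. In the distal nephron calcitriol acts on calcium reabsorption through the entry channel Trpv5 and the carrier protein Calb1. A high salt intake is known to raise urinary calcium along with sodium.

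Genes of the kidney tubule were counted in the libraries, and some marker genes of other tissues were nearly absent. The proximal tubule phosphate carrier Slc34a1 and the thick limb protein Umod were counted in every cortex library, while the intestinal genes Cdx1, Slc26a3, Lgals4 and Aqp8 reached at most 0, 1, 2 and 3 counts and the urothelial Upk1a 5. Libraries held 513294 to 1239310 counted reads in NC, 289529 to 849406 in HS and 530018 to 2265164 in CAL, the last being CAL 1, with the next deepest CAL library at 764666. Levels are given as CPM, the count relative to the library's total with edgeR's TMM scaling, and 3 counts correspond to 1.36 to 5.91 CPM on that scale in the NC and CAL libraries. Sums over a list of genes, in contrast, are relative to the library's total without that scaling. Other members of the intestinal and urothelial marker lists were not absent. Those lists summed to 3940 to 5430 CPM and 905 to 1350 CPM in NC, and the urothelial list's Krt7 was at 446 to 555 CPM in NC. The fat cell gene Adipoq was at 19.2 to 55.3 CPM over the cortex libraries, also without TMM scaling. One CAL library stood apart. On the first principal component of the 500 most variable genes (21.4% of variance) CAL 6 was at -9.52, inside the NC range of -9.68 to -4.47, while the other CAL libraries ran from -2.04 to 5.48 and the HS libraries from 6.6 to 16.27. The leading genes are therefore also given without CAL 6. That library was picked from these same counts for lying near NC, so p-values without it are descriptive only.

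**Figure D1:**
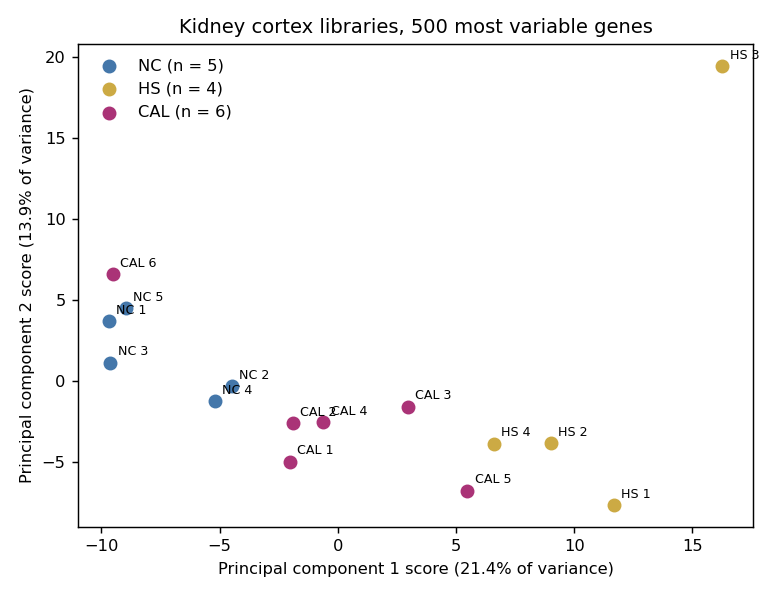
First against second principal component score of the 15 kidney cortex libraries, 1 point per library, coloured by group. CAL 6 (-9.52 on the first component) sits among the NC libraries, and the other 5 CAL libraries lie between NC and HS.

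No gene stood apart from control at an adjusted p under 0.05. In edgeR's quasi-likelihood fit 0 of 7524 tested genes (0%) passed between CAL and NC, the smallest adjusted p being 0.0832, and 13 genes were under 0.1. Before adjustment 892 genes (11.9%) had a p under 0.05, of which 492 were higher in CAL (6.54%) and 400 lower (5.32%). DESeq2 called 28 genes, 21 higher and 7 lower, but gave an adjusted p to fewer genes, with 5251 of the 7524 set to NA. Every CAL library lay above every NC library for 40 genes (0.532%) and below for another 40 (0.532%). In the same fit 831 genes (11%) passed between HS and NC and 57 (0.758%) between CAL and HS. These comparisons share libraries and group sizes differ. The fitted difference exceeded 1 on the log2 scale, in either direction, for 43 genes in CAL minus NC, 250 in HS minus NC and 81 in CAL minus HS, and the median absolute difference was 0.181 for CAL minus NC and 0.305 for HS minus NC.

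The count moved with CAL 6 and with the filter on low counts. With no filter edgeR called 83 genes, of which 68 had also been tested with it. Without CAL 6 edgeR's quasi-likelihood test called 40 of 7555 genes, of which 29 were higher in CAL (0.384%) and 11 lower (0.146%). A further count, of genes at an unadjusted p under 0.05, was 1185. Those 40 were picked with CAL 6 left out, and in 30 of them CAL 6 was nearer the NC mean than the mean of the other CAL libraries. Leaving out the CAL library most like NC favours such genes, so the 40 are not an independent result. Entpd2, an ectonucleotidase that hydrolyses extracellular ATP, and the phospholipid enzyme Chpt1 shared the lowest adjusted p (0.0134, edgeR). Entpd2 was at 39.3 CPM on average in the other 5 CAL libraries, 95.9 CPM in CAL 6 and 80.3 CPM in NC. Kif11, the mitotic kinesin, averaged 78.3 CPM in the other CAL libraries against 24.9 CPM in CAL 6 and 36.1 CPM in NC. For Synpo, Ppp1r2, Hltf, Srsf1, Fam81a and Spcs3, in contrast, CAL 6 was on the side of the other CAL libraries. Entpd2 and Kif11 were chosen for description after their values were seen.

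**Figure D2:**
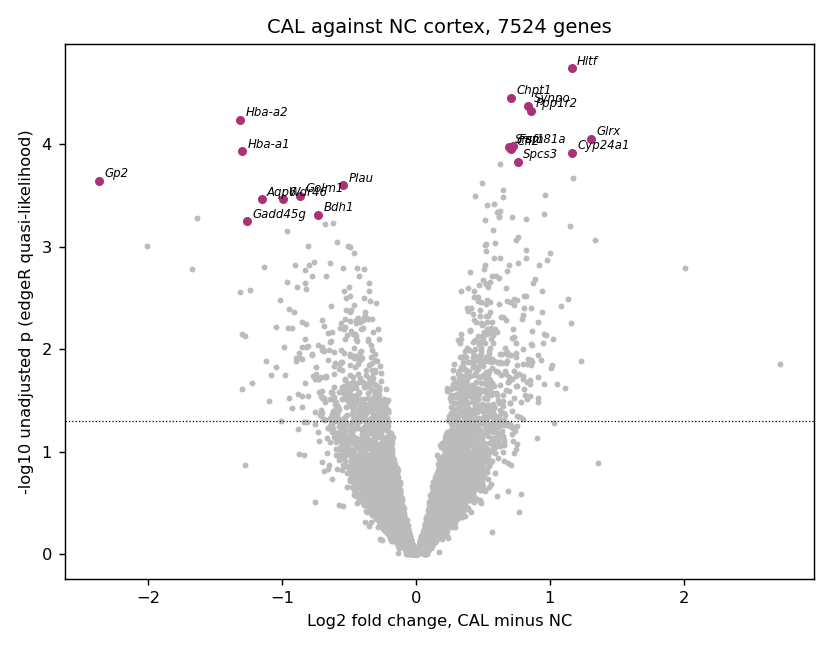
Log2 fold change of CAL minus NC (horizontal) against -log10 of the unadjusted edgeR quasi-likelihood p (vertical) for 7524 genes, 1 point per gene. Leading genes described in the text are labelled, the dotted line marks an unadjusted p of 0.05, and no gene passed after adjustment.

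The 20 genes described first are the 10 of smallest p in each direction, none of them past the threshold. Among the higher genes were a DNA translocase, a podocyte protein, a splicing factor, an actin-severing protein and the vitamin D 24-hydroxylase. Among the lower genes were the alpha globins, a urokinase, an intercalated cell water channel and a glycoprotein related to uromodulin. For 16 of the 20 the RefSeq promoter table (build GRCr8) holds the 250 bases before the start. They were searched on both strands for words tied to clock factors and nuclear receptors. The words were the E-box CACGTG, the D-box TTATGTAA or TTACGTAA, and the half-sites AGGTCA and AGGTGA. The E-box was in 3 of the 16 (5.59% of all 33469 promoters hold it), AGGTCA in 1 (14.1%), AGGTGA in 2 (14%) and the D-box in 0 (0.932%). CACGTG reads the same on both strands, and the words did not overlap in the promoters shown. The 4 promoters with a match are printed so that the words can be seen in place, each 5′ to 3′ on the gene's strand with the matched words in capitals: Hltf at chr2:104478515-104478764 (plus strand), Cfl2 at chr6:78094889-78095138 (minus), Aqp6 at chr7:132610819-132611068 (plus) and Gadd45g at chr17:13530352-13530601 (minus).
Hltf: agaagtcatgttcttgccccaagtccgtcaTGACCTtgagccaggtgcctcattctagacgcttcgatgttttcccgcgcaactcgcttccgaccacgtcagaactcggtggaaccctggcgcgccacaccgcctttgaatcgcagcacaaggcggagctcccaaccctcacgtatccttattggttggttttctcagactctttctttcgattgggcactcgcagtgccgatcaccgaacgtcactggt
Cfl2: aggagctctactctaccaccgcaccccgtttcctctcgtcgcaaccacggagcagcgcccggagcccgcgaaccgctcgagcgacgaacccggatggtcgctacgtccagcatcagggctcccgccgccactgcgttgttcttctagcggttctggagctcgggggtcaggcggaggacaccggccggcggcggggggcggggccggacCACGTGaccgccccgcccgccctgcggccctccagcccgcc
Aqp6: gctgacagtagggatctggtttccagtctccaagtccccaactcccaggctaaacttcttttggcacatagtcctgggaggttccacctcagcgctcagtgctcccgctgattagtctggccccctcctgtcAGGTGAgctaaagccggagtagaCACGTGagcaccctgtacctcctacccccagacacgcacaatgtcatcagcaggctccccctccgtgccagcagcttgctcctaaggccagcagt
Gadd45g: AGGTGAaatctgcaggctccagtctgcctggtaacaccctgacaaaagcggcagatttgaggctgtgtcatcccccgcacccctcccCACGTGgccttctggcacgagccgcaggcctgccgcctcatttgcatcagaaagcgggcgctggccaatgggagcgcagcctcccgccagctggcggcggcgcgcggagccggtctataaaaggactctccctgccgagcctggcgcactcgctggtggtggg
In Hltf the capitals are AGGTCA on the opposite strand, in Cfl2 they are CACGTG, and in Aqp6 and Gadd45g they are AGGTGA followed by CACGTG. A match is a description of letters and was not tested for binding.

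Hltf, a helicase-like DNA translocase that acts at stalled replication forks, had the smallest p. Its level was 15.6, 21.2, 18, 21.7 and 28.4 CPM in NC 1 to 5 and 35.3 at the lowest, 48.9 at the median and 58 at the highest in CAL. No CAL library overlapped the NC range. The log2 difference was 1.16 (SE 0.22, 95% interval 0.71 to 1.62, edgeR quasi-likelihood adjusted p = 0.0832), and without CAL 6 it was 1.19 (adjusted p = 0.0224). The HS libraries were at 28 to 58.5 CPM, and HS minus NC was 1.05.

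Synpo, synaptopodin of the podocyte foot process, was above the control level in CAL and had a mean below it in HS. NC libraries were at 32.6, 36.5, 30.6, 45.3 and 50 CPM. CAL libraries ran from 59.6 through a median of 65.8 to 86.3 CPM, all above NC, with CAL 6 the highest. HS libraries were at 21 to 31 CPM. CAL minus NC was 0.84 (SE 0.17, interval 0.49 to 1.19, adjusted p = 0.0832 by edgeR quasi-likelihood) and 0.78 without CAL 6 (adjusted p = 0.0300), where HS minus NC was -0.49 (adjusted p = 0.153). Of 12 tested podocyte genes, 3 were higher at an unadjusted p under 0.05 and 0 lower: Synpo, the transcription factor Wt1 (0.60) and the cell-cycle inhibitor Cdkn1c (0.46, or 0.26 without CAL 6). At that p 6.54% of all tested genes were higher and 5.32% lower, and every list count below is to be read beside these shares. The podocyte list's median was 0.161 (0.097 without CAL 6, 0 over all genes). Its summed level was 694 to 1010 CPM in NC and 715 to 1370 CPM in CAL. In a bulk sample, a different number of cells of a type and a different amount of RNA per cell cannot be told apart.

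Cyp24a1 was the only one of 14 tested vitamin D metabolism and target genes that was higher at an unadjusted p under 0.05. The only lower one was Gc, the vitamin D binding protein (-0.87), for which HS minus NC was -1.28. NC libraries held 68, 64.6, 52.2, 94.6 and 68.4 CPM of Cyp24a1. CAL libraries ran from 80.3 through a median of 135 to 245 CPM. CAL 1 (245) and CAL 6 (230) were highest, and CAL 2 (80.7) and CAL 4 (80.3) were below NC 4 (94.6). CAL minus NC was 1.17 (SE 0.26, interval 0.64 to 1.70, edgeR quasi-likelihood adjusted p = 0.0832), 1.05 without CAL 6 (adjusted p = 0.0526) and 0.93 without CAL 1 (adjusted p = 0.111). HS minus NC was -0.29, with HS libraries at 37 to 80.6 CPM. DESeq2 called Cyp24a1 (adjusted p = 0.0117). Vdr itself was at 80.1 to 139 CPM in NC and 84.5 to 235 CPM in CAL, a difference of 0.41 (interval -0.02 to 0.84, adjusted p = 0.443) that was 0.14 without CAL 1, the library at 235. The vitamin D list's median was -0.14. Its endocytic receptors Lrp2 (-0.14) and Cubn (-0.15), which take up filtered vitamin D with its binding protein, and the 27-hydroxylase Cyp27a1 (-0.004) had unadjusted p of 0.210, 0.343 and 0.992.

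**Figure D3:**
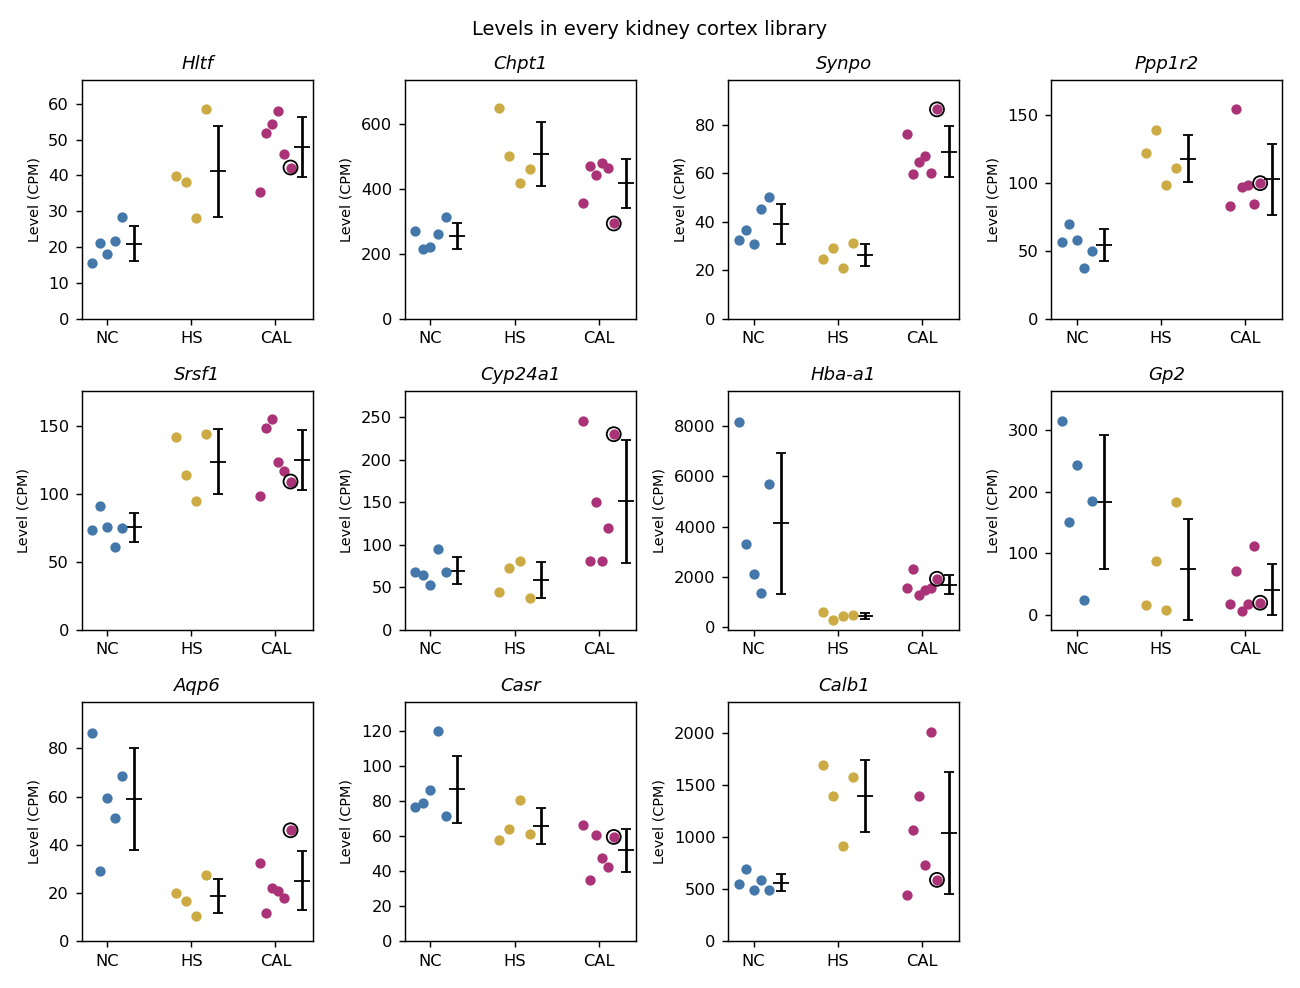
Level in CPM (vertical, linear) of 11 genes in every kidney cortex library of NC (n = 5), HS (n = 4) and CAL (n = 6), with the mean and SD drawn to the right of each group and CAL 6 circled. All CAL points of Hltf, Synpo, Ppp1r2 and Srsf1 lie above all NC points, all CAL points of Casr lie below them, and the groups overlap for the others shown.

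The remaining higher genes had different tasks. Chpt1, a cholinephosphotransferase that makes phosphatidylcholine, was at 214 to 312 CPM in NC and 293 to 479 CPM in CAL. Its overlap with NC came from CAL 6, at 293, and CAL minus NC was 0.71 (SE 0.14) and 0.79 without CAL 6 (edgeR adjusted p = 0.0832 and 0.0134). Glrx, the glutaredoxin that reduces glutathione-bound proteins, was at 7.09 to 17.7 CPM in NC and 15.3 to 43.9 CPM in CAL, again with CAL 6 the lowest. Ppp1r2, an inhibitor of protein phosphatase 1, was at 37.5 to 69.7 CPM in NC and 82.9 to 154 CPM in CAL, with no overlap. Srsf1, a splicing regulator, ran from 61.1 to 90.9 CPM in NC and from 98.7 to 155 CPM in CAL. Cfl2, a cofilin that severs actin filaments, ran from 53.2 to 89.2 CPM in NC and from 90.1 to 159 CPM in CAL, with CAL 6 just above the highest NC library. Spcs3, a subunit of the signal peptidase, and Fam81a were likewise above the NC range in all 6 CAL libraries. Log2 differences were 1.31 for Glrx, 0.86 for Ppp1r2, 0.70 for Srsf1, 0.71 for Cfl2, 0.76 for Spcs3 and 0.73 for Fam81a. Without CAL 6 they were 1.42, 0.86, 0.73, 0.78, 0.80 and 0.76 in the same order. The edgeR adjusted p was then 0.0224 to 0.0300, after a choice of library made from these data. HS minus NC, which shares the NC libraries, was 0.65 (Fam81a) to 1.09 (Ppp1r2) for these 7 genes.

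The alpha globin genes Hba-a1 and Hba-a2, which are close copies and may share reads, led the lower genes. Hba-a1 was at 8150, 3320, 2100, 1350 and 5690 CPM in NC 1 to 5. In CAL it ran from 1290 through a median of 1550 to 2320 CPM. NC libraries spread widely, and NC 3 and NC 4 lay within the CAL range. CAL minus NC was -1.30 (SE 0.29, interval -1.88 to -0.71, edgeR quasi-likelihood adjusted p = 0.0832, or 0.0451 without CAL 6), and HS minus NC was -3.22. Of 8 tested erythrocyte genes, 4 were lower at an unadjusted p under 0.05 and 0 higher, namely both alpha globins, the beta globin Hbb (-0.91) and Alas2 (-0.98), which starts haem synthesis in red-cell precursors. Over all genes 5.32% were lower and 6.54% higher at that p. The erythrocyte list's median was -0.724 in CAL minus NC and -2.942 in HS minus NC. Haemoglobin transcripts made up 0.378% to 1.95% of counts in NC, 0.0946% to 0.172% in HS and 0.356% to 0.671% in CAL. The share of red-cell RNA thus moved with the groups, and its part in the other results was not tested.

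Other leading lower genes came from several cell types. Gp2, a glycoprotein of the same family as Umod, had the largest fitted difference of the lower 10 at -2.37 (SE 0.55, interval -3.50 to -1.23), from 315, 151, 243, 23.7 and 185 CPM in NC to a lowest of 6.46, a median of 18.4 and a highest of 111 CPM in CAL. It overlapped widely through NC 4. Aqp6, the water channel of intercalated cells, was at 28.9 to 86.5 CPM in NC and 11.5 to 46 CPM in CAL (-1.15, SE 0.28), with CAL 6 the highest, and at 10.5 to 27.4 CPM in HS. Gadd45g, a growth-arrest and stress gene, was at 27 to 90.1 CPM in NC and 13.4 to 36.4 CPM in CAL (-1.26). Plau, the urokinase plasminogen activator, was at 693 to 954 CPM in NC and 429 to 704 CPM in CAL (-0.54), and Bdh1, which interconverts ketone bodies, at 69 to 121 and 46.1 to 76.7 CPM (-0.73). Golm1, a Golgi membrane protein (-0.87), and Wdr46, a nucleolar protein (-0.99), were below the NC range in all 6 CAL libraries. The edgeR quasi-likelihood adjusted p ran from 0.109 to 0.114 for these 7 genes. Without CAL 6, a library picked from these data, it was under 0.05 for Plau (0.0297), Aqp6 (0.0294), Bdh1 (0.0430) and Gadd45g (0.0430). Golm1 (-0.78, 0.0649), Wdr46 (-1.01, 0.0530) and Gp2 (-2.27, 0.0635) did not pass without CAL 6 by edgeR.

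**Figure D4:**
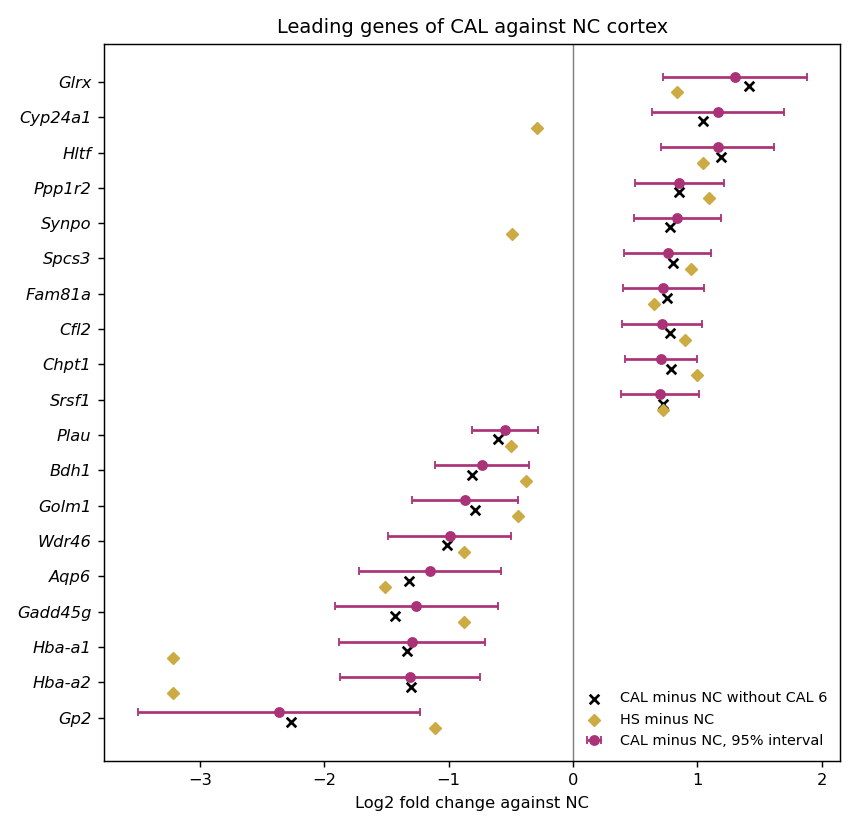
Fitted log2 fold change against NC (horizontal) of the leading genes: CAL minus NC with its 95% interval, CAL minus NC without CAL 6 (cross) and HS minus NC (diamond). Synpo and Cyp24a1 have HS values below 0 (-0.49 and -0.29) and CAL values above 0 (0.84 and 1.17), and the alpha globins have HS values of -3.22 against about -1.3 for CAL.

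Genes of calcium handling lay on both sides of control. Of 15 tested genes for transcellular calcium and magnesium transport, 2 were higher and 3 lower at an unadjusted p under 0.05, with a median of -0.004. Over all genes 6.54% were higher and 5.32% lower at that p. Casr, the calcium-sensing receptor of the thick limb, was at 76.6, 79, 86.4, 120 and 71.7 CPM in NC and from 34.6 through 53.5 to 66.6 CPM in CAL. All 6 CAL libraries were below the NC range (-0.68, SE 0.17, interval -1.03 to -0.32, edgeR adjusted p = 0.116), and without CAL 6 the difference was -0.69 (adjusted p = 0.0635). HS minus NC was -0.41 for Casr. Umod (-0.52) and Egf (-0.67), both products of the thick limb and distal tubule, were the other lower genes, and HS minus NC was -0.26 and -0.41 for them.

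Calb1, the cytosolic calcium carrier of the distal tubule, was at 546, 688, 490, 581 and 487 CPM in NC. CAL libraries ran from 442 through a median of 900 to 2010 CPM. CAL 1 (442) was below every NC library, CAL 6 (587) was inside their range, and CAL 5 (2010) was above every HS library, which were at 915 to 1690 CPM. The difference was 0.89 (SE 0.26, interval 0.35 to 1.42, edgeR adjusted p = 0.182), or 0.59 without CAL 5 and 1.01 without CAL 6 (adjusted p = 0.0631), where HS minus NC was 1.32. Trpv5, the apical calcium channel, was near the counting limit in NC (1 to 7 counts, 1.42 to 5.95 CPM), at 3.84 to 17.7 CPM in CAL and at 7.01 to 28.6 CPM in HS. CAL minus NC was 1.23 (interval 0.28 to 2.19, edgeR adjusted p = 0.289), or 1.31 without CAL 6 (adjusted p = 0.164). Of 10 tested distal convoluted and connecting tubule genes, these 2 were higher and 0 lower at an unadjusted p under 0.05, with a list median of 0.268 (0.316 without CAL 6, 0.47 in HS minus NC).

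Sodium transport genes had a median near control. Of 18 tested, 2 were higher at an unadjusted p under 0.05 and 1 lower, with a median of -0.005. Over all genes 6.54% were higher and 5.32% lower at that p. The higher ones were Oxsr1, a kinase that phosphorylates the sodium chloride cotransporters (0.54), and the potassium channel Kcnj16 (0.35). The thiazide-sensitive cotransporter Slc12a3 was at 45.4 to 92.6 CPM in NC and 57.6 to 106 CPM in CAL (0.23, interval -0.15 to 0.62). Scnn1a, the alpha subunit of the epithelial sodium channel, was at 15.6 to 68.4 CPM and 31.7 to 53.7 CPM (-0.06, interval -0.57 to 0.45, a sign that turned when single libraries were left out). Angiotensinogen (Agt) was at 51 to 75.6 CPM in NC and 40.1 to 78.6 CPM in CAL (-0.09, interval -0.47 to 0.29). Of 11 water channel and osmotic response genes 2 were lower and 0 higher, Aqp6 and the vasopressin receptor Avpr2. Avpr2 was at 34.8 to 56.7 CPM in NC and 18.1 to 40.3 CPM in CAL (-0.79), and its HS minus NC was also -0.79.

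Transporters of the proximal tubule were mostly near control. The urate transporter Slc22a12 was at 700, 805, 884, 838 and 949 CPM in NC and from 576 through 648 to 777 CPM in CAL, and HS libraries were lower, at 403 to 508 CPM. CAL minus NC was -0.35 (SE 0.11, interval -0.57 to -0.13, edgeR adjusted p = 0.191), or -0.40 without CAL 6 (adjusted p = 0.0631), and HS minus NC was -0.91 (adjusted p = 0.000143). It was the only one of 17 urate and organic ion transport genes at an unadjusted p under 0.05. Slc34a1 was at 3490 to 4990 CPM in NC and 2800 to 4280 CPM in CAL (-0.35), the only one of 10 phosphate transport and klotho genes at that p. Among 16 genes of sugar transport, fructolysis and gluconeogenesis, the glucose carrier Slc5a2 (-0.40) and the glucose-6-phosphate carrier Slc37a4 (-0.25) were lower and Slc5a1 (0.73, or 0.31 without CAL 1) higher. Of 21 proximal tubule genes 3 were lower and 0 higher, with a median of -0.12.

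The difference of Pck1, a gene of the fasting response, rested on CAL 1. Pck1, the gluconeogenic carboxykinase, was at 10700 CPM in CAL 1 and 1980 to 5200 CPM in the others, against 2770 to 4190 CPM in NC, so its difference of 0.43 was -0.05 without CAL 1. Of 23 tested fatty acid oxidation and PPAR target genes, 4 were higher and 2 lower at an unadjusted p under 0.05, with a median of 0.205. Among the higher ones were the omega-hydroxylase Cyp4a1 (0.75), the thioesterase Acot2 (0.42) and the electron transfer subunit Etfa (0.32). The short-chain dehydrogenase Acads (-0.39) and the coactivator Ppargc1a (-0.55) were lower.

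Among the 52 gene lists, ubiquitin conjugation had the largest share of its tested genes higher in CAL at an unadjusted p under 0.05. Of 27 tested, 10 were higher at an unadjusted p under 0.05 and 0 lower, against 6.54% and 5.32% of all genes, and 21 of the 27 estimates were above 0 (3762 of 7524 over all genes). The list's median was 0.244 (0.265 without CAL 6, 0.222 in HS minus NC). Ube2d3, an E2 enzyme, was at 400, 438, 382, 307 and 387 CPM in NC and from 458 through 543 to 643 CPM in CAL, with no overlap (0.50, SE 0.12, edgeR adjusted p = 0.109, or 0.0451 without CAL 6). HS libraries were at 625 to 758 CPM. Ube3a, an E3 ligase, was at 0.60 and also did not overlap. The others were Ube2h (0.56), Ube2z (0.97), Ube2j2 (0.43), Ube2g1 (0.48), Ube3c (0.45), Ube2d2 (0.35), Ube2a (0.36) and Ube2v2 (0.36). Proteasome subunits, which degrade the tagged proteins, gave 1 higher (Psmc6, 0.52) and 1 lower (Psma7, -0.21) of 31, with a median of 0.007.

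Rab and Arl GTPases and translation initiation factors had more genes higher than lower at an unadjusted p under 0.05, where 6.54% of all genes were higher and 5.32% lower. Of 37 Rab and Arl GTPases, which direct vesicles between compartments, 7 were higher and 1 lower at that p (median 0.164). Rab9a, of the late endosome, was at 16.2 to 30.6 CPM in NC and 44.1 to 64.6 CPM in CAL 1 to 5, with CAL 6 at 23 (0.96, edgeR adjusted p = 0.109, or 0.0224 without CAL 6). Rab10 (0.58) had all CAL libraries above NC, and Arl5a was at 0.80. Of 31 translation initiation and elongation genes 5 were higher and 1 lower, led by Eif1ax (0.52), at 80.8 to 104 CPM in NC and 74.8 to 150 CPM in CAL, CAL 6 being the 74.8. In that list 15 of the 31 estimates were above 0, and its median was -0.009. Of 63 cytosolic ribosomal protein genes 1 was higher (Rps13, 0.80) and 1 lower (Rps2, -0.33), and of 31 heat shock and ER chaperones 2 were higher and 2 lower. The chaperone Dnajb9 was at 35.5 to 60.3 CPM in NC, 47.6 to 83 CPM in CAL and 77.1 to 142 CPM in HS (CAL minus NC 0.56, HS minus NC 1.29).

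Most estimates of antigen presentation and macrophage genes were below 0. Of 16 MHC antigen presentation genes 5 were lower at an unadjusted p under 0.05 and 0 higher, against 5.32% and 6.54% of all genes. Of the 16 estimates 2 were above 0. The MHC list's median was -0.405 (-0.414 without CAL 6, -0.346 in HS minus NC). Its summed level was 3140 to 3610 CPM in CAL, inside the NC range of 2920 to 5270 CPM. RT1-Bb, a class II chain, was at 254, 163, 119, 106 and 123 CPM in NC and from 63.3 through 91.2 to 109 CPM in CAL. Only CAL 4, at 109, reached the NC range (-0.80, SE 0.22, edgeR adjusted p = 0.142). NC 1, at 254, was the highest, and the smallest difference in any alternative fit was -0.55. The other lower genes were RT1-CE5 (-0.95), RT1-A1 (-0.56), RT1-Db1 (-0.77) and Tapbp (-0.63), a peptide-loading chaperone. The RT1 genes are near copies of one another, so their reads may be split between them. Of 10 macrophage and dendritic cell genes 4 were lower and 0 higher, namely Aif1 (-0.55), Fcer1g (-0.57), Tyrobp (-0.45) and the growth factor receptor Csf1r (-0.52). That list's median was -0.39 and its summed level was 822 to 1550 CPM in NC and 686 to 1020 CPM in CAL. Aif1 was at 43.4 to 99.2 CPM in NC and 36.4 to 61.8 CPM in CAL, and its difference was -0.36 without NC 1. Whether the macrophage content bears on the MHC values was not tested. Of 11 interferon response genes 0 were at an unadjusted p under 0.05 in either direction (median -0.246).

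**Figure D5:**
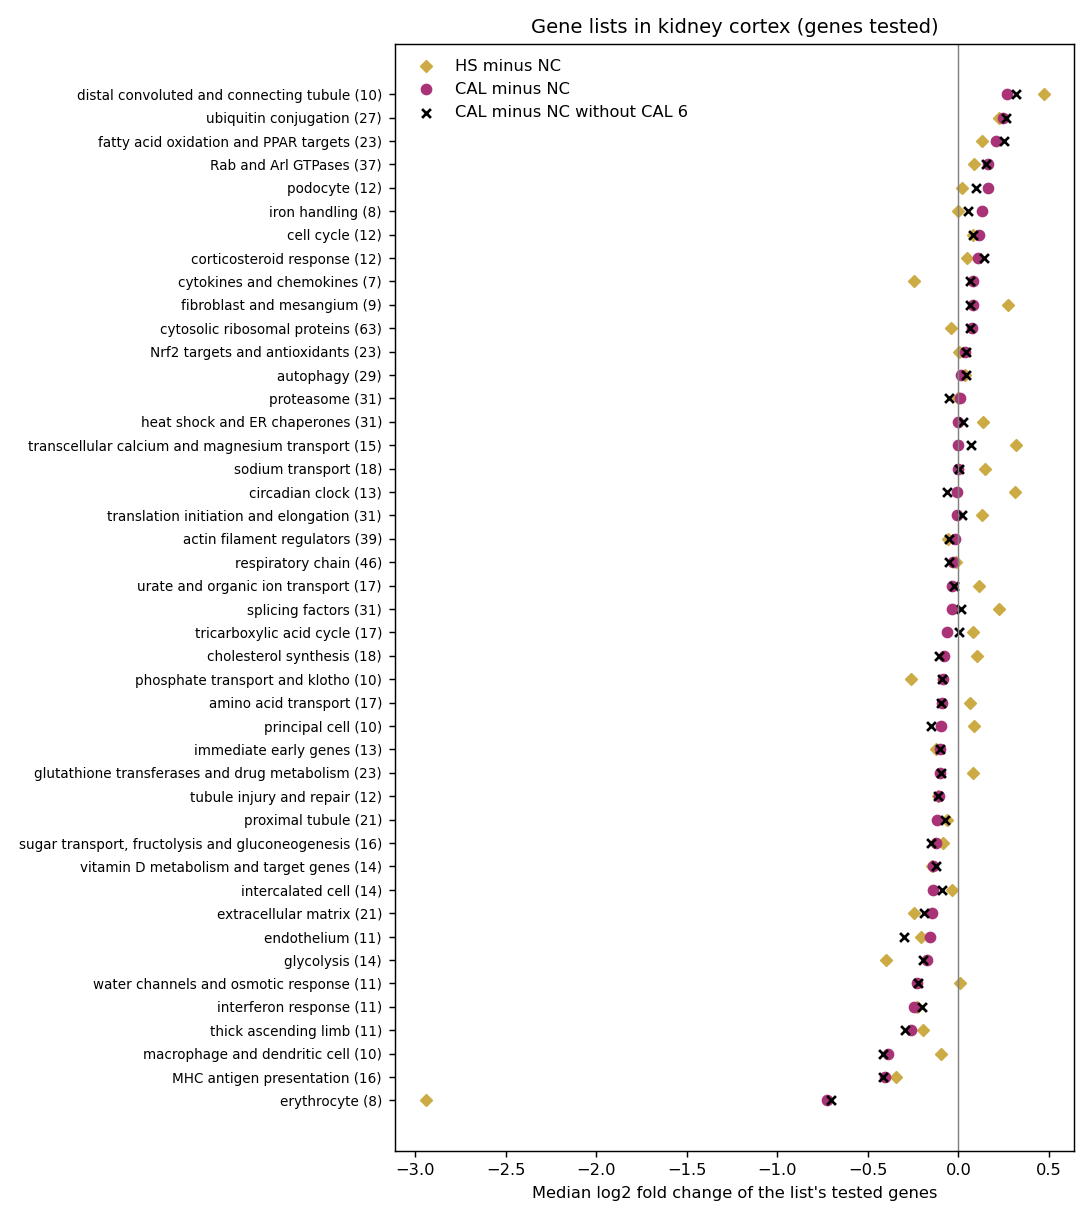
Median log2 fold change (horizontal) of the tested genes of each list with at least 5 of them (number in brackets): CAL minus NC, CAL minus NC without CAL 6, and HS minus NC. The erythrocyte list is lowest in CAL minus NC (-0.724), followed by MHC antigen presentation (-0.405) and macrophages (-0.39), and the grey line is the median of all genes.

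Lists of energy metabolism, structure and clock genes had medians from -0.172 (glycolysis) to -0.006 (clock), while some single genes differed more. Counts here are of genes at an unadjusted p under 0.05, where 5.32% of all genes were lower and 6.54% higher. Of 14 glycolysis genes 3 were lower (Eno1 -0.34, Tpi1 -0.75 and Pkm -0.44) and 1 higher (Pdha1, 0.35). Of 46 respiratory chain genes 4 were lower and 1 higher, and of 17 tricarboxylic acid cycle genes 3 were lower and 2 higher, among the latter Dld (0.44), a subunit shared by several dehydrogenase complexes. Actin filament regulators were split 4 and 4 of 39, with the small GTPase Rhoa (0.44) and Cfl2 higher in all CAL libraries. Of 21 extracellular matrix genes 2 were lower and 0 higher, the basement membrane collagen Col4a2 (-0.74, edgeR adjusted p = 0.321) and Timp3 (-0.27). Col4a2 was at 22.7 to 29.6 CPM in NC, 7.43 to 17.7 CPM in CAL and 0 to 13.7 CPM in HS. All 6 CAL libraries were below its NC range. Of 13 clock genes Per2 was the only one at an unadjusted p under 0.05 (0.93, with HS minus NC at 1.13), and the list's median was -0.006 against 0.312 in HS minus NC. Of 12 tubule injury and repair genes 0 were at that p.

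Cotl1 and Wee1, which passed between HS and NC, lay nearer control in CAL. Cotl1, an actin-binding protein, was at 230, 277, 252, 290 and 347 CPM in NC, 244 to 392 CPM in CAL with a median of 264, and 96.1 to 173 CPM in HS. CAL minus NC was 0.04 (SE 0.14, interval -0.26 to 0.33), a sign that turned without CAL 1, while HS minus NC was -1.10 (edgeR adjusted p = 0.000766) and CAL minus HS was 1.14 (adjusted p = 0.00252). Wee1, a kinase that delays mitosis, was at 7.2 to 15.8 CPM in NC, 13.4 to 27.1 CPM in CAL and 40.6 to 49.1 CPM in HS. Its CAL minus NC difference was 0.58 (interval 0.04 to 1.12, edgeR adjusted p = 0.383) and HS minus NC was 1.79, with CAL minus HS at -1.21 (adjusted p = 0.0199). All 6 CAL libraries of Wee1 were above the NC mean and 5 were above every NC library. Only CAL 2, at 13.4 CPM, was inside the NC range, and no CAL library reached the HS range.

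The CAL minus NC difference was not shown to differ between tissues for any gene. In the fit over all 31 libraries, 0 of 9128 genes (0%) passed for colon minus cortex by edgeR quasi-likelihood, with 411 at an unadjusted p under 0.05, and DESeq2 also gave 0. Of the leading cortex genes, Hltf was at -0.06 in colon, a colon minus cortex difference of -1.22 (unadjusted p = 0.000976, adjusted p = 1 by edgeR). Cfl2 was at -0.71 in colon against 0.71 in cortex (difference -1.43, unadjusted p = 0.0121). Cyp24a1 was at -0.69 with an SE of 1.35 in colon, so its tissue difference of -1.83 was poorly determined.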

How the data were processed

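The deposited table holds raw read counts for 20207 gene symbols in 31 rat libraries made from total RNA. Per the submitters' processing notes the reads were handled with FastQC 0.11.9, Trimmomatic 0.39, HISAT2 2.1.0 and featureCounts 1.6.5 on the build Rnor_6.0. The gene annotation and strand setting are not given in the sources used here, and the kit named in the labels' protocols does not mark strand, so overlapping and antisense genes cannot be told apart. The promoter table is of another build, so its coordinates apply to the printed sequences only.

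Samples were grouped by their labels. Counts were tested in R 4.3.3 with edgeR 4.0.16: filterByExpr (minimum count 10, minimum total 15), TMM scaling, a quasi-likelihood fit over the 15 cortex libraries in 3 groups, and Benjamini-Hochberg adjustment over all tested genes with a threshold of 0.05. The 95% intervals come from this fit, and the limit of 3 counts covers counting error only. The difference between tissues was tested in one fit over 31 libraries. Alternatives used DESeq2 1.42.0, limma 3.58.1 (voom), other filters, thinned counts and each library left out. The procedure was tested on simulated data. No pair of libraries was identical.

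The genes named were, in each direction, those past the threshold, filled to 10 by smallest p among genes whose mean log2 CPM was 1 or more, plus from each of 52 gene lists (1151 of 1191 entries matched, 7 through synonyms, and 814 of 1073 distinct genes tested) the leading gene, plus 12 set genes. Some genes that this rule names are not reported here. Other list genes printed with values are mostly those at an unadjusted p under 0.05, chosen after their values were seen. The comparison, the lists and these 12 were chosen with earlier results of these data known. Lists are described by counts and medians with no test of the list.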

Additional observations from a re-analysis of the deposited data

Results flagged for a closer look

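In groups of 5 or 6 libraries a single library is set apart when its gap to the nearest other library takes up most of the group's range (Dixon's criterion at 95%). Among 68 named genes in NC and CAL cortex, 136 groups in all, 6 met it (4.41%, where chance gives about 1 in 20). Low values were Spcs3 at 31.5 CPM in NC 4, Rps13 at 13.1 CPM in CAL 1 and Eif1ax at 74.8 CPM in CAL 6. High values were Psmc6 at 122 CPM in NC 2, Ppp1r2 at 154 CPM in CAL 2 and Cotl1 at 392 CPM in CAL 1. The total count met it in both groups, at 1239310 for NC 2 and 2265164 for CAL 1. Of the 6 gene values, 2 were in CAL 1 and 1 in CAL 6. Causes were not tested.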

How the results depend on the processing

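The count of genes past the threshold between CAL and NC cortex moved from 0 with the setting, and the cause was not tested unless stated. It was 28 with DESeq2, 83 with no filter on low counts (68 of them also tested with the filter), 7 with a filter of 1 CPM in at least 4 libraries, 2 with robust empirical Bayes and 5 after thinning every library to 289529 counts. It stayed at 0 with DESeq2 size factors in edgeR, with only the groups compared and with voom library weights. Leaving out each library in turn gave 0 to 40, and the 40 came without CAL 6. The count was 4 without NC 2, 2 without NC 4, 3 without NC 5 and 1 without CAL 1. The tissue difference stayed at 0 with DESeq2, the other scaling, filters and weights, the replicate block and in 31 fits with a library left out (thinning was not run for it).

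The replicate block gave 42 genes between CAL and NC, 31 higher and 11 lower. Number 6 exists in CAL alone, so the block takes CAL 6 out of the contrast by construction. Same-numbered NC and CAL cortex libraries had correlations of deviations of -0.158 to 0 in 5 pairs, none over 0.1. Differently numbered NC and CAL pairs ran from -0.213 to 0.137. These values gave no sign of pairing by number, but so few correlations cannot exclude it.

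Of 68 named genes 65 kept their sign in every fit that gave a value. With single libraries left out, Pck1 ran from -0.0468 (without CAL 1) to 0.585 (without CAL 6), Cotl1 from -0.0910 (without CAL 1) to 0.131 (without NC 5) and Scnn1a from -0.278 (without NC 1) to 0.127 (without NC 3). Cotl1 also turned, to -0.0220, without NC 1, and Scnn1a turned without NC 2, NC 4 or CAL 1 (0.0671, 0.0036 and 0.0553). Thinning put Cotl1 at -0.0334, and voom weights put Scnn1a at 0.0838. Thinning to 289529 counts brought the tested genes to 5366. Depth limits Trpv5 most among the genes described, with 1 to 7 counts in the NC libraries.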

Other observations

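Gene lists not described above follow, to be read beside 6.54% of all genes higher and 5.32% lower at an unadjusted p under 0.05. Of 31 splicing factors 2 were higher at an unadjusted p under 0.05 (Srsf1 and Srsf3, 0.32) and 1 lower (Sf3b2, -0.33). Of 23 Nrf2 targets and antioxidants 4 were higher and 2 lower. The higher ones were the regulator Nfe2l2 (0.43), glutathione reductase Gsr (0.33), glutathione peroxidase Gpx1 (0.28) and thioredoxin reductase Txnrd1 (0.26), and the lower ones Keap1 (-0.42), the inhibitor of Nfe2l2, and the extracellular dismutase Sod3 (-0.45). Of 12 corticosteroid response genes 2 were higher, the metallothioneins Mt1 (0.63) and Mt2A (0.47). Of 23 glutathione transferases and drug metabolism genes 1 was higher (Sult1a1, 0.54) and 3 lower, with Gsta2 at -0.87. Of 12 cell cycle genes 2 were higher and 2 lower, of 29 autophagy genes 2 and 1, of 7 cytokines and chemokines 1 (Ccl21, 0.64) and 1 (Cxcl13, -1.01).

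Lists with a single gene at that p, lower in CAL each time, included cholesterol synthesis (18 tested, Pmvk, -0.69), amino acid transport (17, Slc3a2, -0.27), iron handling (8, Tf, -0.39), immediate early genes (13, Gadd45g), principal cell (10, Avpr2), endothelium (11, Plvap, -0.43, and -0.62 without CAL 6) and fibroblast and mesangium (9, Gsn, -0.35). The thick ascending limb list gave 2 lower of 11 (Umod and Egf) and the intercalated cell list 2 of 14 (Aqp6 and the ammonia channel Rhbg, -0.53). T and NK cell genes had 1 of 15 tested, 3 at 0 in every library and a summed level of 50.8 to 103 CPM in NC and 30.1 to 94.5 CPM in CAL. B and plasma cell genes gave Ighm (-0.70) lower of 2 tested, with sums of 146 to 195 and 111 to 210 CPM. Neutrophil and platelet genes gave Itga2b (-0.70) lower of 2, with sums of 58.9 to 71.1 and 30.1 to 71.7 CPM. The papilla and urothelium list gave 2 lower of 3 (Krt7, -0.35, and Ppp1r1a, -0.37), with sums of 905 to 1350 and 724 to 1150 CPM. The adipocyte and adrenal list (2 tested) and the colonocyte and goblet cell list (3 tested) gave 0 genes at that p. The sum of the first was 2760 to 4190 CPM in NC and 1980 to 10400 CPM in CAL, and it holds Pck1, which the tubule also expresses. Its Adipoq, the fat cell hormone adiponectin, was at 19.2 to 55.3 CPM over the cortex libraries, without TMM scaling. The colonocyte list, with Vil1, Tff3 and Guca2a tested, summed to 3940 to 5430 CPM in NC and 1630 to 7360 CPM in CAL.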
